A study of Homo sapiens with 30 samples.

Results

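The genes described here are VGF and 7 other genes of the regulated secretory pathway, PCSK1, PCSK1N, PCSK2, SCG2, SCG5, CHGB and CPE, which are 8 of the 26364 genes listed in each of 30 gene count files. They were taken by symbol as neuroendocrine granule proteins and prohormone convertases. VGF was chosen by measured expression values of these same libraries, and which comparison led to the choice is not recorded, so the levels and fold changes of VGF are given as a description. All cells were A375, an established human melanoma line, from which polyadenylated RNA was sequenced in 10 groups of 3 libraries. Cells were stained with an antibody to integrin β4 (ITGB4, a laminin receptor subunit) and sorted into a positive and a negative fraction, and migration was through transwell membranes with 5 µm pores and a fibronectin coat. The numbers of rounds given here are read from the sample titles, whereas the description of the series gives 5 rounds of migration. Bottom 10 positive and Bottom 10 negative cells had crossed the membrane in 10 rounds, and Top 10 positive and Top 10 negative cells had stayed above it in 10 rounds. In a further pair of groups the titles place the sort before the migration, with 5 rounds of crossing for the positive sort (Sorted positive then 5 rounds) and 4 for the negative sort (Sorted negative then 4 rounds). Bottom 5 negative cells had crossed in 5 rounds and Top 5 positive cells had stayed above the membrane in 5. Parental positive and Parental negative cells were sorted without migration. The labels name no drug and no genetic change in any group, and every group comes from 1 cell line. Libraries are numbered as biological replicates in the labels, which do not tell if each was a separate culture, and p-values therefore reflect the spread among these libraries alone.

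Dense-core secretory granules store peptides and release them when the cell is stimulated. Their cargo includes the granin family, to which VGF, SCG2 and CHGB belong. Inside the granule, PCSK1 and PCSK2 cut precursors after basic residues, CPE trims the basic residues left at the ends, PCSK1N (proSAAS) is an inhibitor of PCSK1, and SCG5 (7B2) is the chaperone that PCSK2 needs to mature. These genes are best known from neurons and endocrine cells. Melanocytes share a neural crest origin with the chromaffin cells of the adrenal medulla and cut the precursor of melanocyte-stimulating hormone with the same convertases. VGF is a known target of nerve growth factor and of cyclic AMP.

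The promoters of VGF and PCSK1, the 2 members whose transcripts varied most closely together over the libraries, are shown because both hold the same 8 letters. The 250 bases before each start site were taken from RefSeq (GRCh38.p14), both on the minus strand, at chr7:101165570-101165819 for VGF and at chr5:96433249-96433498 for PCSK1. Capitals mark the palindrome TGACGTCA, the cyclic AMP response element to which CREB binds.
VGF: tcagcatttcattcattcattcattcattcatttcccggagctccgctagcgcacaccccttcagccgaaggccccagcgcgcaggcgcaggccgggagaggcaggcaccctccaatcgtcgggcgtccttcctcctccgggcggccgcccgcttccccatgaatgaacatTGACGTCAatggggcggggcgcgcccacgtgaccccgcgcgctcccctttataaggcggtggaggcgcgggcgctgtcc
PCSK1: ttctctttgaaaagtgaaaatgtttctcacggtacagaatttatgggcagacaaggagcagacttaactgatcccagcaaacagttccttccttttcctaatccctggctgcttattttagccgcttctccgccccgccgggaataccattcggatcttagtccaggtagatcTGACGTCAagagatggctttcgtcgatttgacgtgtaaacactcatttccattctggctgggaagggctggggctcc
The motif begins 79 bases before the start site in VGF and 77 bases before it in PCSK1. It was searched as these 8 letters alone, which read the same on both strands, and 578 of 35116 RefSeq promoters of this length (1.65%) hold it. Of the 8 promoters listed for 6 of the members, these were the 2 with a match. The second start of PCSK1, both starts of PCSK2, and PCSK1N, SCG5 and CPE had none. SCG2 and CHGB had no promoter listed and were not searched. Within groups SCG2 followed VGF more closely (correlation 0.94) than PCSK1 did (0.88). A match of letters is not a measurement of binding.

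Each library held 14258919 to 29134945 gene counts, 17310 to 18288 genes had at least 1 count in a library, and 15381 genes, all 8 members among them, had enough counts to be tested. Genes that mark melanoma cells were abundant, with SOX10 at 287 to 1460 counts-per-million (CPM), CSPG4 at 223 to 2997 and PRAME at 114 to 216. The pigment genes TYR and MLANA were near 0, at most 2 and 12 counts. The neuroendocrine transcription factor NEUROD1 reached at most 5 counts, and the leukocyte gene PTPRC at most 4. CHGA, the granin most used as a neuroendocrine marker, had 0 to 65 counts and a median of 0.14 CPM. Its highest level, 3.66 CPM, was above that of PCSK2 in any library. INSM1 had 0 to 2.17 CPM, whereas other markers of neuroendocrine and neuronal cells were present, with ENO2 at 45.1 to 232 CPM, SYP at 1.5 to 8.66, NCAM1 at 1.28 to 8.16, SYN1 at 0.824 to 3.89 and UCHL1 at 0.0859 to 3.04 CPM. In these bulk libraries, fewer cells expressing a gene and less RNA per cell cannot be told apart. On the second principal component 6 libraries scored far from the rest and are said below to stand apart, namely replicate 1 of Top 10 negative, replicate 3 of Bottom 10 positive, replicate 2 of Sorted negative then 4 rounds, replicate 2 of Bottom 5 negative and replicates 1 and 3 of Top 5 positive.

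Per length of transcript, VGF was the most abundant of the 8. Its median over the 30 libraries was 92.1 RPKM (CPM per kilobase of exon), against 7.81 for CPE, 3.55 for SCG2, 2.53 for PCSK1N and 2.03 for PCSK1. SCG5 had a median of 1.06 RPKM, CHGB 0.512 and PCSK2 0.142. In 1 library VGF took 0.337% of all gene counts, and in another 0.00618%. Exon lengths came from GENCODE v29, which places VGF on chromosome 7, PCSK1 on 5, PCSK1N on X, SCG2 on 2, SCG5 on 15, CPE on 4, and PCSK2 and CHGB on 20. SCG5 had as few as 6 counts in a library and PCSK2 as few as 4, whereas VGF had 1137 to 76305, so the levels of the first pair carry more counting error.

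VGF spanned 53.8-fold, 62.5 to 3367 CPM. It had 397, 363 and 154 CPM in replicates 1, 2 and 3 of Bottom 10 positive cells, and 1172, 1334 and 301 CPM in those of Top 10 positive cells. It had 576, 477 and 215 CPM in Bottom 10 negative cells, and 3309, 3367 and 836 CPM in Top 10 negative cells. In each of the 4 groups replicate 3 was the lowest, the negative groups did not overlap, and in the positive groups the lowest Top 10 library lay within the Bottom 10 range. In Sorted positive then 5 rounds VGF had 147, 116 and 64.5 CPM, and in Sorted negative then 4 rounds 137, 182 and 62.5 CPM. Bottom 5 negative cells held 263, 127 and 70.5 CPM. None of these 9 libraries reached the 296 CPM of the highest Parental positive library. Top 5 positive cells held 2700, 235 and 196 CPM, Parental positive cells 179, 92.6 and 296 CPM, and Parental negative cells 3177, 338 and 132 CPM. A single library, replicate 1, was therefore 1 order of magnitude above the others in Top 5 positive and nearly so in Parental negative cells, and replicate 1 of Top 5 positive was among the 6 that stood apart.

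By group mean the order of VGF was Top 10 negative (2504 ± 1445 CPM, SD, n = 3), Parental negative (1216 ± 1702), Top 5 positive (1044 ± 1434), Top 10 positive (936 ± 556), Bottom 10 negative (423 ± 187), Bottom 10 positive (305 ± 132), Parental positive (189 ± 102), Bottom 5 negative (153 ± 98.8), Sorted negative then 4 rounds (127 ± 60.6) and Sorted positive then 5 rounds (109 ± 41.5). Neighbours in this order overlapped in every case. Of its variance on the log2 scale, 61.1% lay between groups, against a median of 35.7% over all tested genes. VGF was chosen by values of these same libraries, so this share is a description and lends it no weight.

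**Figure D1:**
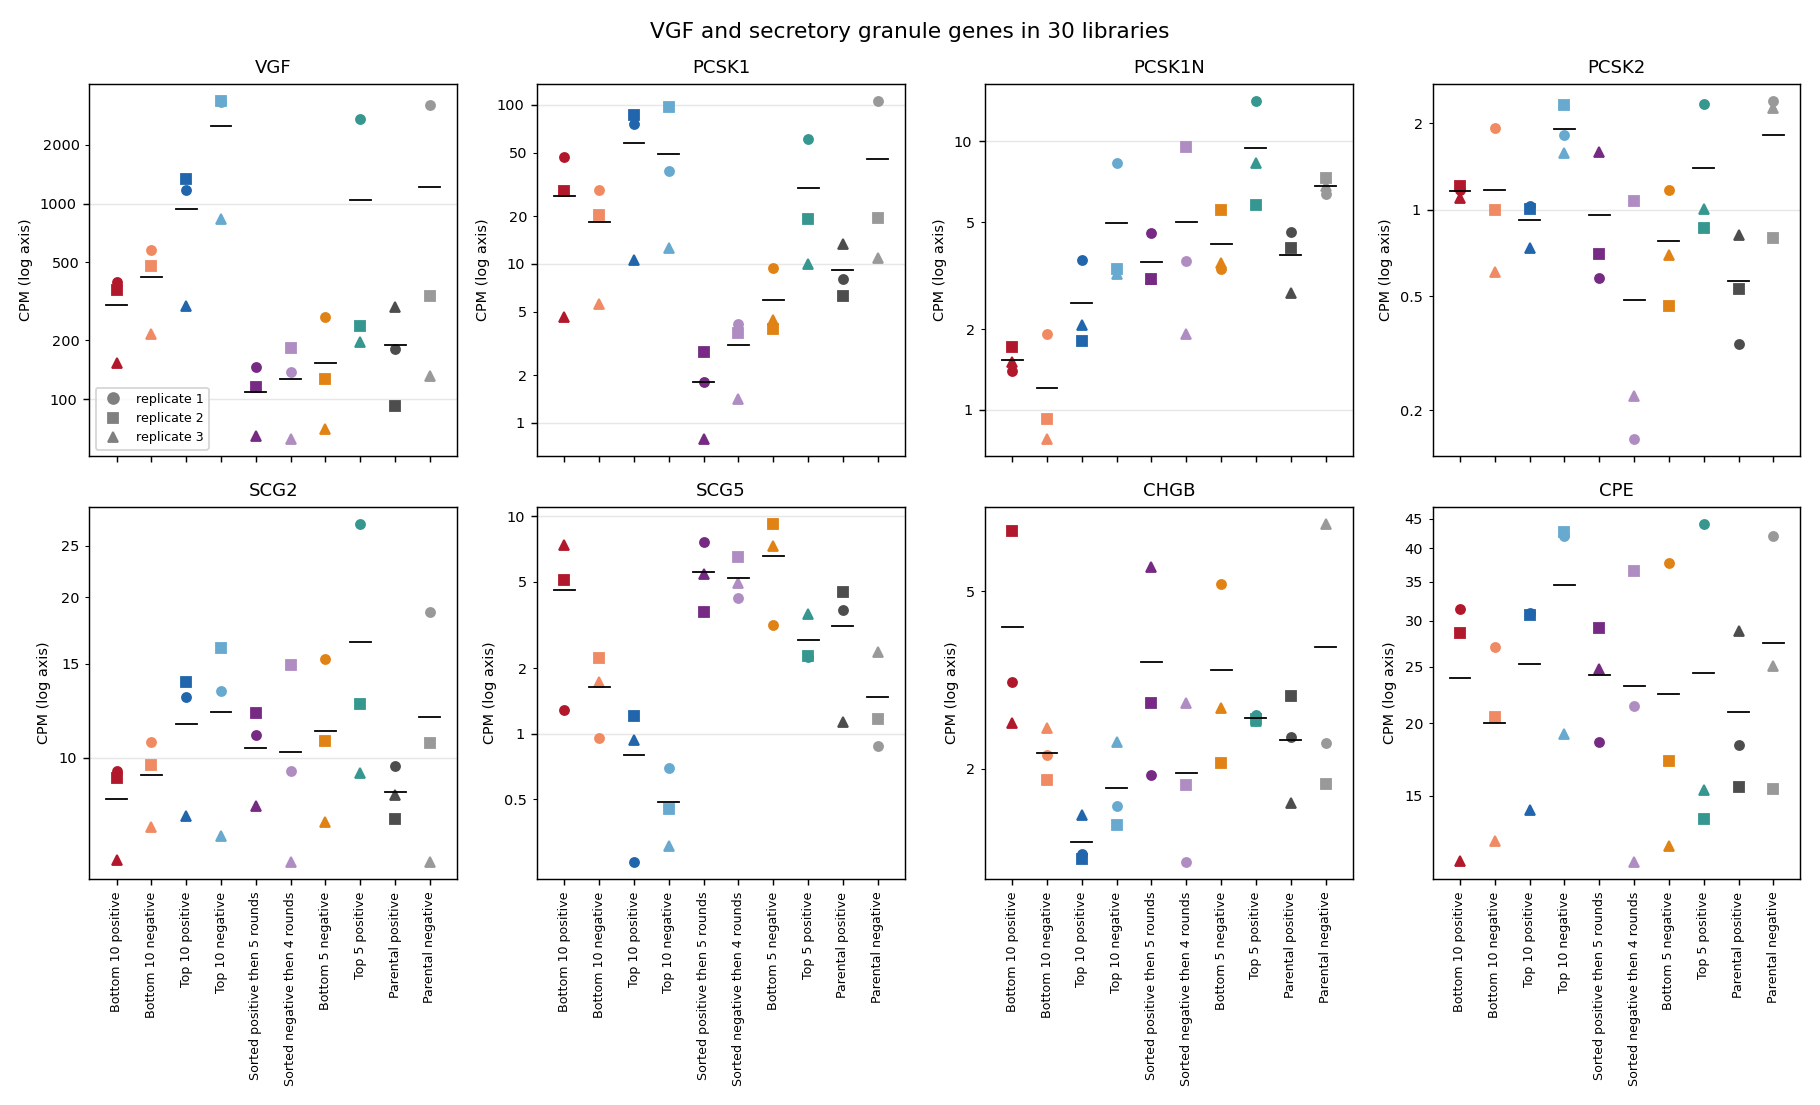
CPM of each member in each library, on a log axis, by group; marker shapes give the replicate number and black bars the mean of 3 libraries. VGF and PCSK1 have their highest levels in Top 10 cells and in single libraries of Parental negative and Top 5 positive cells, whereas SCG5 is lowest in Top 10 cells.

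The fitted log2 fold changes of VGF, each with the SE of the fit, were as follows. Bottom 10 minus Top 10 was -2.57 ± 1.00 in the negative sort, 5.92-fold below, and -1.62 ± 0.96 in the positive sort, 3.07-fold below. Top 10 positive minus Parental positive was 2.30 ± 0.99, a pair of groups that did not overlap. Top 10 negative minus Parental negative was 1.04 ± 0.95, and Bottom 10 negative minus Parental negative was -1.52 ± 0.96. The values against Parental negative cells turned on replicate 1 of that group. Without it they were 3.41 and 0.85, the second with the sign turned, and the difference between Parental positive and Parental negative cells was -0.31, against -2.68 ± 1.00 with it. Sorted negative then 4 rounds minus Parental negative was -3.26 ± 1.03, and -0.88 without that library, and Bottom 5 negative minus Parental negative was -2.99 ± 1.01, and -0.62 without it. Top 5 positive minus Parental positive was 2.46 ± 0.99, and 0.20 without replicate 1 of Top 5 positive. Between Bottom 10 negative and Bottom 5 negative cells it was 1.46 ± 0.96, and between Top 10 positive and Top 10 negative cells -1.42 ± 0.96. The other 5 comparisons were within 2-fold, although Top 10 positive minus Top 5 positive, at -0.16, was 2.09 without replicate 1 of Top 5 positive. Over all 16 comparisons edgeR put VGF past an adjusted p of 0.05 in 0, past an unadjusted p of 0.05 in 6, and DESeq2 past its adjusted p in 2. The fit with replicate number as a block, described below, put it past an adjusted p of 0.05 in 3 of 4 comparisons. Because VGF was chosen with these values in view, these counts lend it no weight either way.

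PCSK1, the convertase that makes the first cuts in most granule precursors, ran from 0.794 to 107 CPM and was the member most like VGF. It had 47.0, 28.9 and 4.65 CPM in Bottom 10 positive cells, and 75.7, 86.3 and 10.6 CPM in Top 10 positive cells. It had 29.3, 20.5 and 5.59 CPM in Bottom 10 negative cells, and 38.5, 97.1 and 12.6 CPM in Top 10 negative cells. Replicate 3 was again the lowest of each of these groups, so the groups overlapped although each Bottom 10 library was below the Top 10 library of its own number. Cells sorted before migration held the least, 1.82, 2.80 and 0.794 CPM in Sorted positive then 5 rounds and 4.18, 3.67 and 1.42 CPM in Sorted negative then 4 rounds. Bottom 5 negative cells held 9.40, 3.91 and 4.44 CPM. Top 5 positive cells held 60.7, 19.1 and 10.0 CPM, Parental positive cells 8.01, 6.30 and 13.3 CPM, and Parental negative cells 107, 19.6 and 10.9 CPM. PCSK1 was therefore lower in every library of both groups sorted before migration than in any library of the parental cells of the same sort. The share of all genes without overlap is not reported here for these comparisons, and was 15.2% to 17% where it is given.

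PCSK1 fell by 3.90 ± 1.02 on the log2 scale in Sorted negative then 4 rounds relative to Parental negative cells (edgeR adjusted p = 0.0464, quasi-likelihood test with Benjamini-Hochberg adjustment over all genes). It was 1 of 7 members called in that comparison (all but VGF were tested), where 2% of all tested genes were called. The call was lost without replicate 1 of Parental negative, which was high for VGF as well (log2 fold change -2.31, adjusted p = 0.383), without replicate 2 of that group (0.0612), and without replicate 1, 2 or 3 of the sorted group (0.0574, 0.136 and 0.105). The next largest differences of PCSK1 were -2.95 ± 0.97 in Bottom 5 negative minus Parental negative (edgeR adjusted p = 0.207; -1.37 without replicate 1 of Parental negative, adjusted p = 0.945), 2.64 ± 0.95 in Top 10 positive minus Parental positive (0.325) and -2.34 ± 0.99 in Sorted positive then 5 rounds minus Parental positive (1). None of these passed.

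PCSK1N, which codes for the PCSK1 inhibitor proSAAS, differed from its partner. It had 1.92, 0.928 and 0.780 CPM in Bottom 10 negative cells, against 8.33, 3.36 and 3.21 CPM in Top 10 negative and 6.37, 7.30 and 6.81 CPM in Parental negative cells. The Bottom 10 negative libraries were below every library of both. PCSK1N fell in Bottom 10 negative relative to Top 10 negative cells (log2 fold change -2.05 ± 0.50, edgeR adjusted p = 0.0369), the single call among 7 members where 1.33% of all genes were called. It fell likewise relative to Parental negative cells (-2.51 ± 0.51, edgeR adjusted p = 0.0258), again the single call among 7, where 0.325% of all genes were called. These comparisons share the Bottom 10 negative libraries. Against Top 10 negative cells the call was lost without replicate 1 of Top 10 negative, one of the 6 libraries that stood apart (-1.45, adjusted p = 0.366), without all 6 (-1.47, 0.0900), and without replicate 2 or 3 of Bottom 10 negative (0.262 and 0.195). Against Parental negative cells it was lost without replicate 1, 2 or 3 of Parental negative (0.0611, 0.0937 and 0.0518) and without replicate 2 or 3 of Bottom 10 negative (0.207 and 0.159).

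In the positive sort PCSK1N had 1.40, 1.72 and 1.51 CPM in Bottom 10 cells, 3.61, 1.80 and 2.07 CPM in Top 10 cells and 4.59, 4.02 and 2.73 CPM in Parental cells. The Bottom 10 positive libraries were below all 6 of the others, but the log2 fold changes of -0.69 ± 0.50 and -1.29 ± 0.50 did not pass (edgeR adjusted p = 0.792 and 0.470). Its highest levels were in Top 5 positive cells, at 14.2, 5.80 and 8.34 CPM, and replicates 1 and 3 of that group stood apart. Top 5 positive minus Parental positive was 1.32 ± 0.48 (edgeR adjusted p = 0.228), and Top 10 positive minus Top 5 positive was -1.91 ± 0.49 (0.135). The other groups held 1.91 to 9.55 CPM.

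PCSK2, the second convertase, was the least abundant member at 0.159 to 2.40 CPM. It had 1.17, 1.21 and 1.09 CPM in Bottom 10 positive cells and 1.03, 1.00 and 0.738 CPM in Top 10 positive cells. In the negative sort it had 1.92, 0.995 and 0.607 CPM in Bottom 10 cells and 1.82, 2.31 and 1.58 CPM in Top 10 cells. Its level in every Top 10 positive library was below that of every Top 10 negative library, a difference of -1.04 ± 0.58 on the log2 scale that did not pass (edgeR adjusted p = 1). Its lowest values were 0.159 and 0.225 CPM in replicates 1 and 3 of Sorted negative then 4 rounds, whose replicate 2, one of the 6 that stood apart, had 1.07 CPM. Against Parental negative cells, at 2.40, 0.794 and 2.25 CPM, this was -2.02 ± 0.62 (edgeR adjusted p = 0.0964), and without replicate 2 it was -3.19 (adjusted p = 0.0179). PCSK2 was thus called in this comparison only with that library left out, or with DESeq2 (adjusted p = 0.0247).

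SCG5, the PCSK2 chaperone 7B2, ran the other way from VGF. It had 1.29, 5.10 and 7.39 CPM in Bottom 10 positive cells, and 0.258, 1.20 and 0.934 CPM in Top 10 positive cells. It had 0.961, 2.22 and 1.73 CPM in Bottom 10 negative cells, and 0.694, 0.454 and 0.305 CPM in Top 10 negative cells. Neither pair of groups overlapped, with every Bottom 10 library above every Top 10 library of its sort. The log2 fold change was 2.52 ± 0.62 in the positive sort, 5.75-fold, and just missed the threshold (edgeR adjusted p = 0.0500382). For negative cells it was 1.75 ± 0.64 (edgeR adjusted p = 0.265). It was highest in the remaining crossed groups, at 7.61, 3.61 and 5.44 CPM in Sorted positive then 5 rounds, 4.22, 6.50 and 4.91 CPM in Sorted negative then 4 rounds and 3.15, 9.22 and 7.28 CPM in Bottom 5 negative cells. Parental positive cells held 3.72, 4.50 and 1.13 CPM and Parental negative cells 0.877, 1.16 and 2.36 CPM. Relative to parental cells of the same sort, SCG5 in Bottom 10 cells was 0.56 ± 0.57 (positive) and 0.17 ± 0.60 (negative) on the log2 scale. In Top 10 cells it was -1.96 ± 0.62 (positive) and -1.58 ± 0.65 (negative). Bottom 10 negative minus Bottom 5 negative was -1.98 ± 0.59, and Top 10 positive minus Top 5 positive was -1.76 ± 0.62. None of these passed with edgeR. Bottom 5 negative minus Parental negative was 2.15 ± 0.60 (edgeR adjusted p = 0.10), Sorted negative then 4 rounds minus Parental negative 1.82 ± 0.60 (0.118), and DESeq2 called both (adjusted p = 0.0194 and 0.0473). The highest SCG5 library of Bottom 10 positive, of Sorted negative then 4 rounds and of Bottom 5 negative cells was in each case one of the 6 that stood apart. Without those 6, Bottom 10 positive minus Top 10 positive was 2.00 (edgeR adjusted p = 0.234), Bottom 5 negative minus Parental negative 1.81 (0.333) and Sorted negative then 4 rounds minus Parental negative 1.61 (0.261).

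CHGB, a granin of the chromogranin type, was at 1.23 to 7.09 CPM. It had 3.13, 6.82 and 2.53 CPM in Bottom 10 positive cells, against 1.29, 1.25 and 1.57 CPM in Top 10 positive cells and 2.15, 1.89 and 2.47 CPM in Bottom 10 negative cells. Bottom 10 positive cells were above both without overlap, with log2 fold changes of 1.60 ± 0.49 (edgeR adjusted p = 0.169) and 0.94 ± 0.48 (1) that did not pass. CHGB differed by less than 2-fold in 14 of the 16 comparisons.

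SCG2, the secretogranin that gives rise to secretoneurin, and CPE, the carboxypeptidase, were the steadiest members. SCG2 was at 6.36 to 27.5 CPM and CPE at 11.5 to 44.1 CPM, and neither differed by 2-fold in any of the 16 comparisons. For CPE 12.3% of the variance lay between groups and for SCG2 22.5%, both below the median of all tested genes. Their spread was mostly within groups. In Top 10 negative cells SCG2 had 13.4, 16.1 and 7.13 CPM and CPE 41.9, 42.7 and 19.1 CPM, with replicate 3 the lowest as it was for VGF. The highest SCG2 and CPE libraries were both replicate 1 of Top 5 positive, at 27.5 and 44.1 CPM, which also held the highest VGF of that group.

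The remaining 13 comparisons gave no call among the 7 members. Between Bottom 10 positive and Top 10 positive cells edgeR called 0, where 0.943% of all genes were called. There 2 members were under an unadjusted p of 0.05 (9% of all genes), and DESeq2 called 1, SCG5 (1.85% of all genes). Of the 7, 4 did not overlap between these groups (15.2% of all genes), and 2 of 7 did not between Bottom 10 negative and Top 10 negative cells (16.1%). In Bottom 10 negative minus Parental negative, 1 of the 7 did not overlap, against 17% of all genes. For the other pairs of groups described above as not overlapping, the share of all genes is not reported here.

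Between the sorts edgeR called 0 of 7 members in each pair of groups, and DESeq2 called 0 as well. In Bottom 10 cells 0% of all genes were called, and 1 member was under an unadjusted p of 0.05 (3.57% of all genes). In Top 10 cells 0.013% of all genes were called, with 0 members unadjusted (1.71%). In Sorted positive then 5 rounds minus Sorted negative then 4 rounds it was 0% of all genes, with 0 members unadjusted (3.67%). In Parental cells it was 0.0585% of all genes, with 2 members unadjusted (4.45%), PCSK1 and PCSK2. Few genes of any kind separated the sorts.

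Against parental cells of the same sort, edgeR called 0 of 7 in each of 6 further comparisons. In Bottom 10 positive cells 0.247% of all genes were called, and 1 member was under an unadjusted p of 0.05 (8.3% of all genes). In Top 10 positive cells it was 0.384%, with 2 members unadjusted (9.05%), and in Top 10 negative cells 0.0455%, with 2 (4.74%). In Sorted positive then 5 rounds it was 0.039%, with 1 (3.01%), and in Top 5 positive cells 0.163%, with 3 (17.4%). DESeq2 called 0 members in these 5. In Bottom 5 negative cells it was 0.858%, with 2 (9.14%), and DESeq2 called 1, SCG5 (2.09% of all genes). Between 10 and 5 rounds edgeR called 0 of 7 in Bottom 10 negative minus Bottom 5 negative (0.117% of all genes), with 2 unadjusted (7.22%) and 0 with DESeq2. It called 0 in Top 10 positive minus Top 5 positive (0.0455%), with 2 unadjusted (21.7%) and 1 with DESeq2, PCSK1N (1.02%). Over these 13 comparisons the unadjusted count was 0 to 3 of 7 members, a count of so few genes that 1 member more or less moves its share widely.

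**Figure D2:**
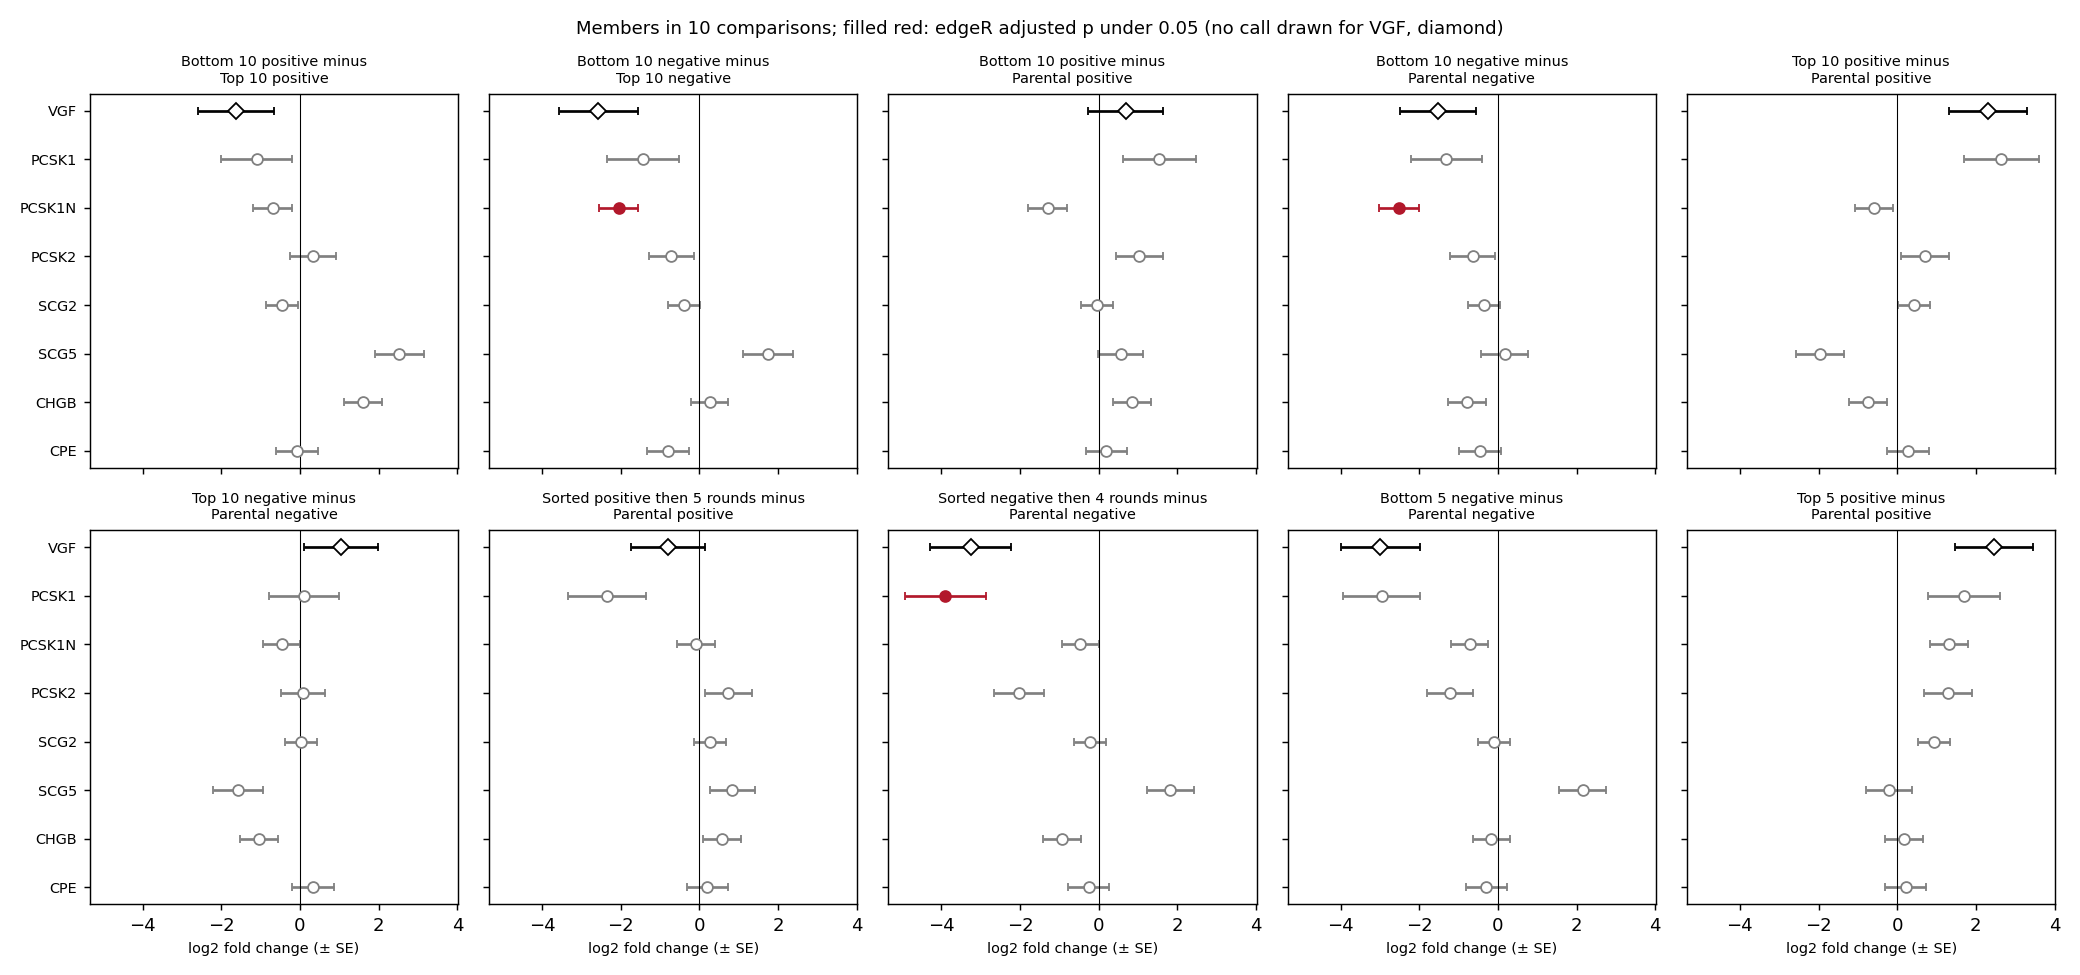
Log2 fold change of each member with its SE in 10 comparisons, crossed or uncrossed cells minus their reference; filled red points passed an edgeR adjusted p of 0.05, and VGF is drawn as a diamond with no call. The red points are PCSK1N in Bottom 10 negative cells against Top 10 negative (-2.05) and Parental negative cells (-2.51) and PCSK1 in Sorted negative then 4 rounds (-3.90).

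Libraries of the Top 10 and Bottom 10 groups with the same replicate number deviated together, and a fit with the replicate number as a block in these 4 groups was made beside the fit without it. The labels state no pairing. It was inferred from these same counts, so the smaller SE and adjusted p of the blocked fit rest on that inference. With the block, PCSK1 (log2 fold change -1.35 ± 0.35, edgeR adjusted p = 0.0410), PCSK1N (-2.01 ± 0.30, 0.00278) and CPE (-0.77 ± 0.13, 0.00520) fell in Bottom 10 negative relative to Top 10 negative cells, 3 of 7 where 9.29% of 14587 genes were called. Each was lower in 3 of 3 pairs. SCG5 (2.46 ± 0.51, edgeR adjusted p = 0.0164) and CHGB (1.58 ± 0.37, 0.0286) rose in Bottom 10 positive relative to Top 10 positive cells, 2 of 7 where 7.75% of genes were called, and each was higher in 3 of 3 pairs. VGF was lower in 3 of 3 pairs of both, with log2 fold changes of -2.43 ± 0.20 for negative and -1.48 ± 0.19 for positive cells. Because VGF was chosen by values of these libraries, its values in this fit are a description and no test. Between the sorts the blocked fit called 0 of 7 in Top 10 (0.24% of genes called) and 0 of 7 in Bottom 10 cells (0.83%), where VGF was -1.42 ± 0.19 and -0.47 ± 0.19 and lower in the positive library of 3 of 3 pairs. The blocked calls depended on which replicate numbers were kept. In the negative sort 3 members were called without replicate 1 (PCSK1, PCSK1N and SCG5), 0 without replicate 2 and 2 without replicate 3 (PCSK1N and CPE), and in the positive sort 2 without replicate 1 (PCSK1 and SCG5), 0 without replicate 2 and 1 without replicate 3 (CHGB).

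**Figure D3:**
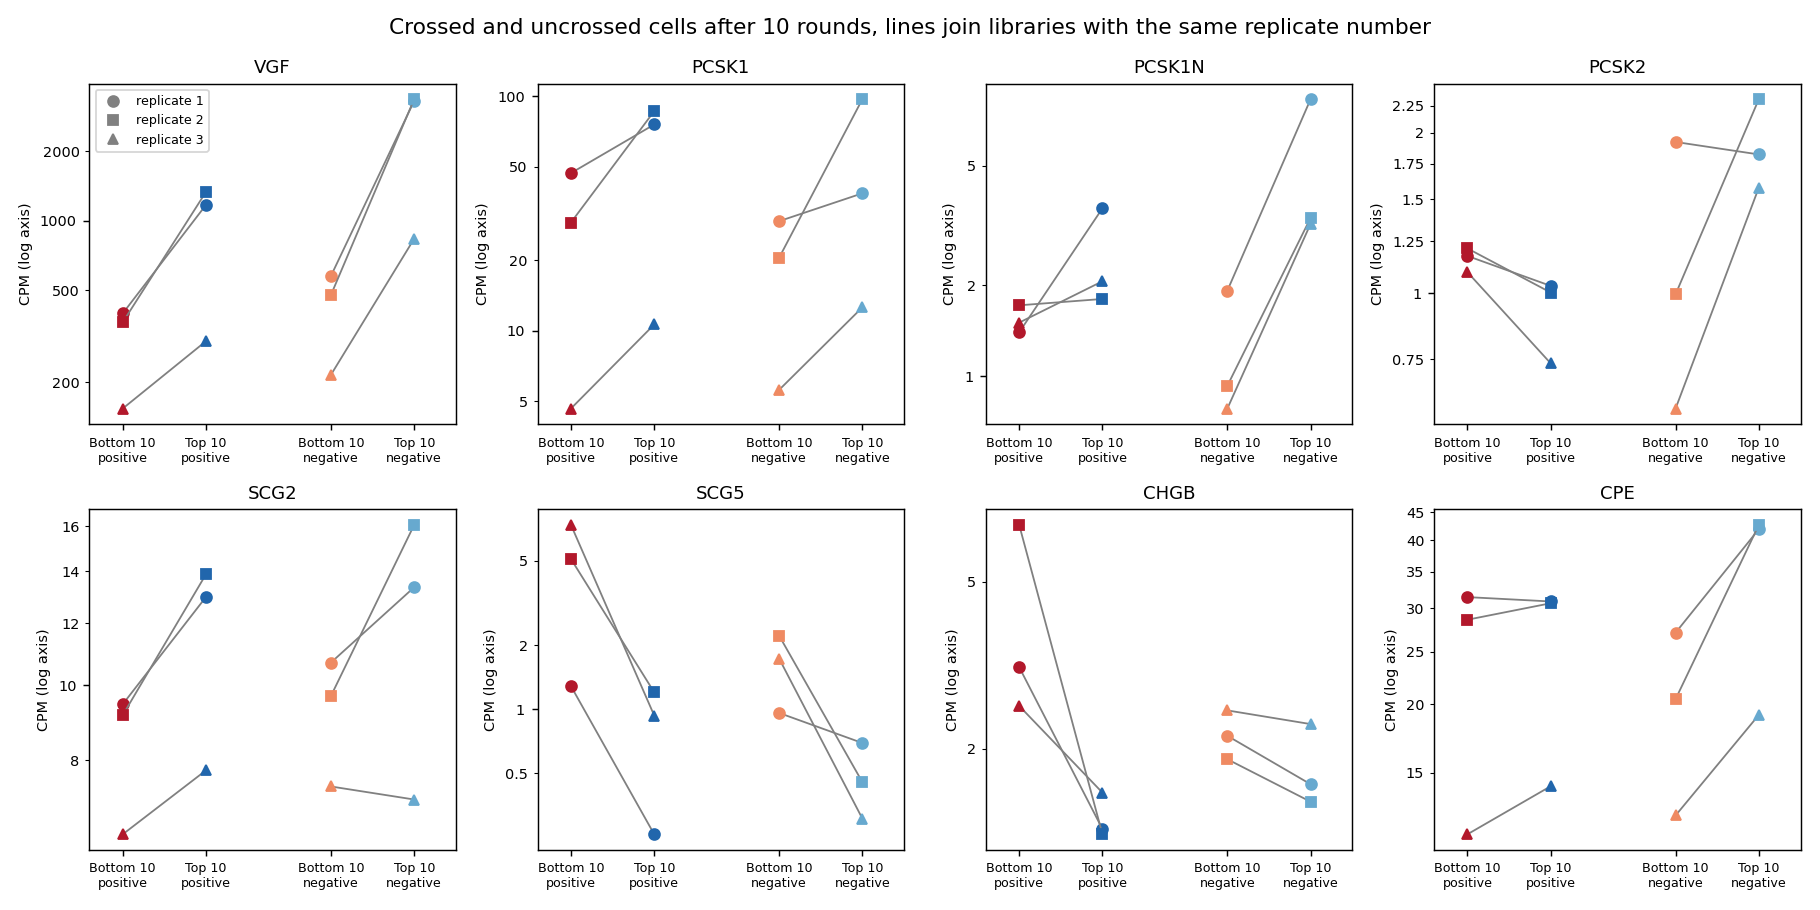
CPM of each member in the Bottom 10 and Top 10 groups, on a log axis that differs between panels; lines join libraries with the same replicate number. VGF, PCSK1 and PCSK1N are lower in the Bottom 10 library of all 6 pairs, and SCG5 and CHGB are higher in it.

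Whether the change from uncrossed to crossed cells was unlike in the negative and positive sorts was tested as the difference between the 2 fold changes. Of the 7 members 0 passed in the fit of 10 groups, where 0% of all genes did, with 0 at an unadjusted p under 0.05 (2.87% of all genes). With the block 0 passed as well (0% of all genes), although 4 were under an unadjusted p of 0.05, as were 13.1% of all genes (lowest edgeR adjusted p = 0.342). The largest of these were PCSK1N, with a log2 difference of -1.40 ± 0.43 (negative minus positive sort), and CHGB, with -1.33 ± 0.52. The blocked fold change of PCSK1N was the larger in the negative sort (-2.01, against -0.61 in the positive). That of CHGB was the larger in the positive sort (1.58, against 0.25 in the negative).

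Across the 30 libraries the members did not form 1 block. Pearson's r of log2 CPM with VGF was 0.88 for PCSK1, 0.67 for SCG2, 0.67 for CPE, 0.64 for PCSK2, 0.17 for PCSK1N, -0.38 for CHGB and -0.76 for SCG5. These are descriptions over libraries that share groups and replicate numbers. After group means were removed r was 0.88 for PCSK1, 0.94 for SCG2 and 0.82 for CPE, so these followed VGF from library to library inside a group. For SCG5 the relation lay between groups, with r of -0.93 over the 10 group means and -0.39 within groups. VGF itself had r of 0.91 with the first principal component, which held 32.4% of the variance of all genes, and 6.40% of 11665 ranked genes had r with VGF above 0.8 or below -0.8. PCSK1 ranked 111th of these, SCG2 1123rd and CPE 1140th.

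The 5 genes most like VGF over the 30 libraries, among those with a mean of at least 5 CPM in a group, were SOD3 (r = 0.97), CFI, STRA6, ERO1B and ACSS2 (r = 0.96 each). SOD3 is the extracellular superoxide dismutase and ran from 0.711 to 332 CPM. CFI is complement factor I, at 2.39 to 105 CPM. STRA6 is the receptor through which cells take up retinol from its binding protein, at 10.6 to 196 CPM. ERO1B, an oxidase that supports disulfide formation in the endoplasmic reticulum, was at 7.94 to 194 CPM, and ACSS2, which makes acetyl-CoA from acetate, at 12.2 to 131 CPM. All 5 kept r of at least 0.94 with VGF after group means were removed.

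**Figure D4:**
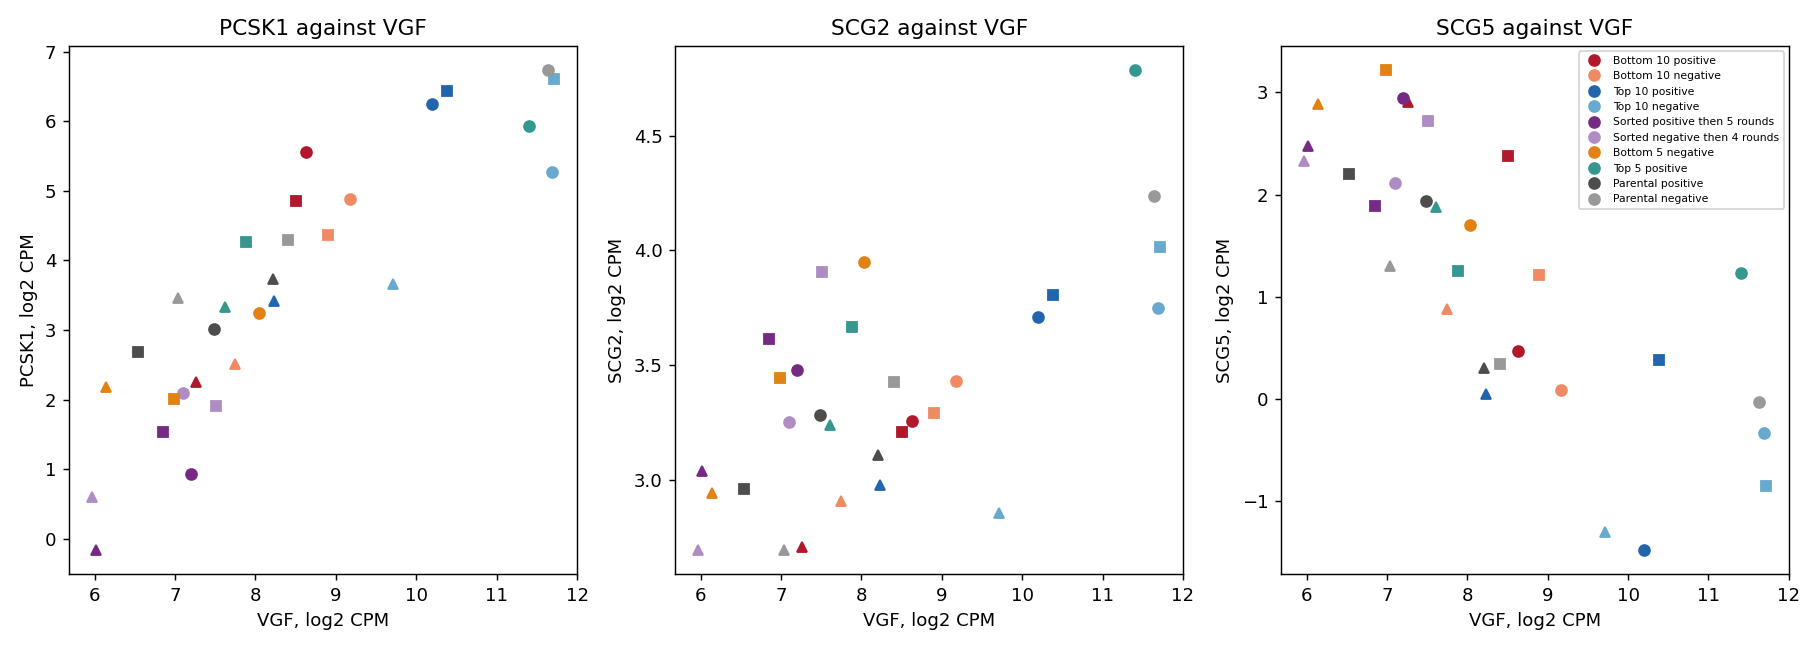
Log2 CPM of other members against VGF, 1 point per library, coloured by group with the replicate number as marker shape. PCSK1 increases with VGF (r = 0.88) and SCG5 is low where VGF is high (r = -0.76).

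Other genes of the pathway were read from lists chosen with earlier results known. Of 7 further granins and granule proteins, all were tested and 0 were called with edgeR in any comparison. NPTX2, a secreted pentraxin, had the smallest p of these, at 0.768 ± 0.18 CPM in Bottom 10 negative and 2.83 ± 1.45 CPM in Parental negative cells (log2 fold change -1.87 ± 0.54, edgeR adjusted p = 0.182). SPOCK1, a testican proteoglycan, CHGA and SCG3, a granin that helps sort cargo, followed.

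Of 12 further processing enzymes 11 were tested and PCSK5, another convertase, was called in 3 comparisons. It fell to 0.599 ± 0.34 CPM in Bottom 10 positive, against 2.52 ± 0.38 CPM in Top 10 positive cells (-2.04 ± 0.45, edgeR adjusted p = 0.0242), 1 of 11 where 0.943% of all genes were called. It fell to 0.392 ± 0.20 CPM in Bottom 5 negative (adjusted p = 0.00407) and to 0.725 ± 0.37 CPM in Sorted negative then 4 rounds (0.0299), against 2.61 ± 0.60 CPM in Parental negative cells, which both comparisons share, again 1 of 11 each, where 0.858% and 2% of all genes were called. The median log2 fold change of the 11 was -0.29, -0.42 and -0.37 in these 3 comparisons, against 0.03, 0.02 and 0.01 over all tested genes. Furin, the convertase of the Golgi apparatus, had 125 ± 21.1 CPM in Sorted negative then 4 rounds and 205 ± 12.6 CPM in Parental negative cells, which did not pass (FURIN, -0.71 ± 0.22, edgeR adjusted p = 0.10). The values for PCSK6 (0.121) and CPD, another carboxypeptidase (0.173), did not pass either. With the block, PCSK5 (in the positive sort), PCSK6 (in both) and CTSL, a protease that can cut granule precursors (in the negative sort), were lower in Bottom 10 than in Top 10 cells, 2 of 10 in each sort, where 9.29% of all genes were called in the negative and 7.75% in the positive comparison.

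Of 28 genes of the granule membrane and of exocytosis, 25 were tested. CADPS2, a factor that primes granules for release, rose to 20.7 ± 4.84 CPM in Bottom 10 negative, against 7.82 ± 2.17 CPM in Top 10 negative cells (1.40 ± 0.27, edgeR adjusted p = 0.00512). RAB3B, a GTPase on the granule surface, rose to 8.75 ± 3.78 CPM, against 1.87 ± 0.24 CPM (2.23 ± 0.45, adjusted p = 0.00715). These were 2 of 25, where 1.33% of all genes were called, and the median of the list was -0.01 beside -0.01 over all tested genes. CADPS2 fell in Top 5 positive relative to Parental positive cells, to 8.88 ± 1.77 CPM, against 22.5 ± 1.13 CPM (-1.34 ± 0.27, edgeR adjusted p = 0.0363), 1 of 25 where 0.163% of all genes were called. Of the 2 others with the smallest p, STX1A, a syntaxin of the plasma membrane, had an edgeR adjusted p of 0.0878 and SYTL2, a RAB27 effector, of 0.0876. With the block 4 of 23 were higher and 2 lower in Bottom 10 negative than in Top 10 negative cells, and 3 higher and 2 lower in the positive sort, where 9.29% and 7.75% of all genes were called. Between the sorts RAB3D was lower in Bottom 10 positive than in Bottom 10 negative cells with the block (-0.64, edgeR adjusted p = 0.0457). It was 1 of 23 where 0.83% of all genes were called.

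Of 29 propeptide genes 14 were tested. BDNF, the precursor of brain-derived neurotrophic factor, rose to 8.33 ± 1.95 CPM in Bottom 10 negative, against 2.14 ± 0.55 CPM in Top 10 negative cells (1.96 ± 0.49, edgeR adjusted p = 0.0431), 1 of 14 where 1.33% of all genes were called. ADM, the adrenomedullin precursor, had 39.4 ± 10.3 CPM in Bottom 10 positive and 16.2 ± 4.99 CPM in Top 10 positive cells (1.28 ± 0.34, edgeR adjusted p = 0.0749). With the block BDNF and ADM were higher and UCN2, an urocortin, was lower in Bottom 10 than in Top 10 cells of both sorts. These were 2 higher and 1 lower of 12 in each sort, where 9.29% (negative) and 7.75% (positive) of all genes were called. The values of UCN (0.226) and NMU (0.137), precursors of urocortin and neuromedin U, did not pass.

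Of 12 neuroendocrine transcription factors with their repressor REST, 7 were tested. PROX1, a homeobox factor, fell to 2.26 ± 0.98 CPM in Sorted negative then 4 rounds, against 9.35 ± 2.98 CPM in Parental negative cells (-2.05 ± 0.48, edgeR adjusted p = 0.0271), 1 of 7 where 2% of all genes were called. With the block PROX1 was lower in Bottom 10 than in Top 10 cells of both sorts. It was 1 of 5 in each sort, where 9.29% (negative) and 7.75% (positive) of all genes were called. REST itself, at 38.8 to 113 CPM, did not pass, nor did HAND2 or INSM1. Of 15 genes that respond to cyclic AMP or belong to the CREB pathway, FOSB, a partner in AP-1, fell to 7.09 ± 2.68 CPM in Sorted negative then 4 rounds, against 15.7 ± 3.31 CPM in Parental negative cells (-1.15 ± 0.28, edgeR adjusted p = 0.0343). It was 1 of 15 genes listed, where 2% of all tested genes were called, and NR4A3, CRTC1 and PDE4B did not pass. The median of the 15 there was -0.57, against 0.01 over all tested genes. Over all 16 comparisons it ran from that -0.57 to 0.31, the latter in Top 10 positive minus Parental positive. Of 8 receptors for neurotrophins and VGF peptides, 0 were called with edgeR, and NTRK3 had the smallest p (edgeR adjusted p = 0.0828). With the block NGFR, the low-affinity neurotrophin receptor, was higher in Bottom 10 than in Top 10 cells of both sorts, and NTRK3 was lower in the negative sort. Of 8 receptors, 1 was thus higher and 1 lower in the negative sort (9.29% of all genes called). In the positive sort 1 of 8 was higher (7.75%).

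Markers of other cell types were read beside these results. Of 9 neuroendocrine and neuronal markers 7 were tested and 0 were called with edgeR. Their summed level, most of it ENO2, was 72.6 to 221 CPM in Bottom 10 negative, 70.0 to 145 CPM in Top 10 negative and 65.5 to 121 CPM in Parental negative cells. Of 3 fibroblast markers DCN rose in Sorted negative then 4 rounds relative to Parental negative cells (1.63 ± 0.43, edgeR adjusted p = 0.0495), the comparison in which PCSK1 fell. It was 1 of 3 where 2% of all genes were called. The 3 summed to 12.5 to 46.9 CPM in Sorted negative then 4 rounds and to 26.7 to 38.2 CPM in Parental negative cells. With the block ENO2 was higher in Bottom 10 negative than in Top 10 negative cells (log2 fold change 0.52, edgeR adjusted p = 0.0456), the comparison in which PCSK1, PCSK1N and CPE fell with the block. It was 1 of 5 neuroendocrine and neuronal markers in the blocked fit, where 9.29% of all genes were called. COL1A1 was likewise higher in Bottom 10 negative and the epithelial keratin KRT14 in Bottom 10 positive cells, each relative to the Top 10 cells of its sort. They were 1 of 3 fibroblast and 1 of 2 epithelial markers in the blocked fit, where 9.29% and 7.75% of all genes were called. The 4 epithelial markers summed to 3.74 to 45.4 CPM in Bottom 10 positive and 1.00 to 14.5 CPM in Top 10 positive cells, and the fibroblast markers to 21.3 to 42.0 CPM in Bottom 10 negative and 14.1 to 27.6 CPM in Top 10 negative cells. Of 9 melanocyte and melanoma markers 7 were tested. MITF, the melanocyte master regulator, fell in Bottom 10 positive relative to Parental positive cells (-1.04 ± 0.21, edgeR adjusted p = 0.0243). It was 1 of 7 where 0.247% of all genes were called. With the block S100B, a calcium-binding protein of melanoma and glial cells, was lower in Bottom 10 than in Top 10 cells of the negative (-0.82, edgeR adjusted p = 0.0166) and the positive sort (-0.85, 0.0176). MITF was lower in Bottom 10 positive than in Top 10 positive cells (-0.65, edgeR adjusted p = 0.0177), and the pigment enzyme DCT was higher in Bottom 10 negative than in Top 10 negative cells (1.78, 0.0130). Of 7 such markers in the blocked fit, 1 was thus higher and 1 lower in the negative sort (9.29% of all genes called). In the positive sort 2 were lower (7.75%). The 9 melanocyte and melanoma markers summed to 1899 to 2420 CPM in Bottom 10 negative and 2223 to 4766 CPM in Top 10 negative cells. In the positive sort they summed to 1056 to 2626 CPM in Bottom 10 and 1989 to 4027 CPM in Top 10 cells. Most of each sum was CSPG4 and SOX10, at 223 to 2997 and 287 to 1460 CPM over all libraries. The pigment genes TYR, MLANA, PMEL and DCT added little to it. The part of these markers in the levels of the granule genes was not tested.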

How the data were processed

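Polyadenylated RNA was sequenced in 30 libraries of A375 cells, 3 in each of 10 groups taken from the sample titles. The deposited values were raw read counts by gene symbol, each library in a file of its own. Per the submitters' processing notes the authors used STAR, HTSeq, DESeq and the build hg19; versions, strand setting and annotation are not given in the sources used here. Reads assigned to no single gene, 22.1 to 31.8% of a library, were left out. Libraries within groups were no copies of each other (chi-square per degree of freedom at least 11.6, log correlation 0.917 to 0.991).

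Genes were filtered with edgeR (minimum count 10, minimum total 15), scaled by TMM and fitted with edgeR 4.0.16 (quasi-likelihood, 10 groups in 1 fit, R 4.3.3), and 16 comparisons were tested, two-sided, with Benjamini-Hochberg adjustment over 15381 genes at 0.05. The SE is the log2 fold change divided by the square root of F. CPM used TMM library sizes, log2 CPM a prior count of 2, and RPKM the summed exon length of GENCODE v29. The fit was tested on simulated counts. VGF was fitted with the other genes, but only counts of its calls are given. Of each list, the up to 4 genes with the smallest p were named, and the 5 genes with the highest correlation with VGF. Members and lists were chosen with earlier results of these data known, so their counts are no independent support.

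Replicate numbers were taken to pair 2 groups where same-numbered libraries correlated above 0.1 for each of 3 numbers once group means had been subtracted. No pairing is stated in the labels. This held among the Top 10 and Bottom 10 groups (0.265 to 0.791 in the 4 comparisons), for Sorted positive then 5 rounds with Sorted negative then 4 rounds (0.199 to 0.435), and for Bottom 5 negative with Parental negative (0.379 to 0.590). Alternatives were DESeq2 1.42.0, RLE scaling, no filter, the block, only the compared groups, and leaving out each library; leaving out 6 libraries with a score above 30 on the second principal component, and each replicate number in the block, was chosen after seeing the data.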

Additional observations from a re-analysis of the deposited data

How the results depend on the processing

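The number of the 7 members called did not change in any of the 16 comparisons with RLE scaling or without the filter on low counts. With only the 2 compared groups in the fit, the 3 comparisons with 1 call each had 0: Bottom 10 negative against Top 10 negative, Bottom 10 negative against Parental negative, and Sorted negative then 4 rounds against Parental negative. With DESeq2 the count was 3 in Sorted negative then 4 rounds against Parental negative (PCSK1, PCSK2 and SCG5), and 1 in Bottom 10 positive against Top 10 positive (SCG5), Bottom 5 negative against Parental negative (SCG5) and Top 10 positive against Top 5 positive (PCSK1N). With a replicate block over all 10 groups it was 1 in Bottom 10 positive against Top 10 positive (SCG5, adjusted p = 0.0370) and unchanged elsewhere, and with the replicate block in the Top 10 and Bottom 10 groups only it was 3 in Bottom 10 negative against Top 10 negative and 2 in Bottom 10 positive against Top 10 positive. In that blocked fit the counts were 3, 0 and 2 in the negative sort without replicates 1, 2 and 3, and 2, 0 and 1 in the positive sort. Leaving out single libraries moved the count between 0 and 1 in Bottom 10 negative against Top 10 negative and against Parental negative, Sorted negative then 4 rounds against Parental negative, Bottom 10 positive against Top 10 positive (1 with SCG5, without Bottom 10 positive replicate 1) and Top 10 positive against Top 5 positive (1 with PCSK1N, without Top 5 positive replicate 2), and in the other 11 comparisons it stayed 0. Without the 6 libraries that stood apart the count in Bottom 10 negative against Top 10 negative was 0. Of 47 member fold changes of at least 2-fold, 2 turned in sign under any alternative, both in Bottom 10 negative against Parental negative cells without replicate 1 of Parental negative: VGF (0.85, against -1.52 with it) and PCSK1. PCSK1 in Bottom 10 negative against Parental negative cells was 0.27 without replicate 1 of Parental negative and -1.31 with it (not called in either), and leaving out single libraries gave -1.81 to 0.27. The cause was not tested. With 4 to 51 counts of PCSK2 and 6 to 197 of SCG5 per library, depth limits the precision of both.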

Other observations

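The genes that ran most strongly against VGF over the 30 libraries, picked after their values were seen, were AJAP1 (r = -0.98), EMP1 (-0.97), CAV1 (-0.96), IL7R (-0.96) and THBS1 (-0.95). AJAP1 codes for a protein of adherens junctions, CAV1 for the main coat protein of caveolae and THBS1 for thrombospondin 1, a secreted matrix glycoprotein. AJAP1 ran from 3.51 to 52.6 CPM, CAV1 from 35.1 to 701 CPM and THBS1 from 136 to 2186 CPM. All 5 kept r of -0.91 or below with VGF after group means were removed. The libraries share groups and replicate numbers, and these correlations carry no p.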
